A study of Mus musculus with 12 samples.

Results

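Among the miRNAs counted in exosomes of mouse granulosa cells, 7 with known roles in gonadotropin action and steroid synthesis of these cells were followed: mmu-miR-21a-5p, mmu-miR-132-3p, mmu-miR-224-5p, mmu-miR-383-5p, mmu-miR-320-3p, mmu-miR-378a-3p and mmu-miR-202-5p. They were chosen by name for these roles, at a time when earlier results of these data were known. Of the 637 entries counted, 6 belong to the 7 miRNAs, and mmu-miR-383-5p was not analysed here. All 6 passed the filter of at least 10 counts over the 12 libraries that was used for the tests.

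The granulosa cells came from female Kunming mice primed with pregnant horse serum gonadotropin, so the cells of every group had been exposed to a gonadotropin before culture. All cells were kept for 24 h in DMEM/F12 without exosomes and were then cultured for 48 h in 4 groups of 3 libraries each. The CON group had no treatment, the FAC group had 100 μM ferric citrate, which loads cells with iron, the DFO group had the same iron plus the chelator deferoxamine mesylate at 100 μM, and the VE group had the same iron plus the antioxidant VITE at 200 μM. The sources used here do not say how many animals or cultures a library stands for, so p-values measure the spread between these libraries, which may be technical.

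Granulosa cells surround the oocyte, convert androgens to estradiol with aromatase under FSH, and turn to progesterone synthesis after the LH surge. A miRNA pairs with mRNAs mainly through its seed, the bases 2 to 8 from its 5′ end, and lowers the output of those mRNAs. Part of the miRNAs of a cell leaves it in exosomes, small vesicles that can be taken up by the oocyte and by other follicular cells.

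The mature sequences of the 4 members that RefSeq's table of mouse miRNAs (GRCm38.p6) held are printed below, each followed by its seed relative where 1 of the other counted miRNAs shared the seed. They show which counts could be mixed between relatives. The seed is in capitals.
mmu-miR-21a-5p: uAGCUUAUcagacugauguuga
mmu-miR-21c: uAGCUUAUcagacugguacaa
mmu-miR-132-3p: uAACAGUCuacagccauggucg
mmu-miR-212-3p: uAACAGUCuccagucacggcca
mmu-miR-224-5p: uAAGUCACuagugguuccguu
mmu-miR-202-5p: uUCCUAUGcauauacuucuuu

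In GRCm38.p6, miR-21a-5p lies at chr11:86584120-86584141 on the minus strand within the Vmp1 gene. The sequence of miR-132-3p lies at chr11:75173723-75173744 on the plus strand and that of miR-212-3p close by at chr11:75173443-75173464, and the hairpins of both form 1 cluster. The position of miR-224-5p is chrX:72261085-72261105 on the minus strand within Gabre, where Mir452 is its neighbour, and miR-202-5p is at chr7:139957732-139957752 on the minus strand. The other relative, miR-21c, is at chr8:128278188-128278208 on the minus strand. No sequence of miR-224-5p or miR-202-5p shared its seed with another of the 547 counted entries that had a sequence. The first 15 bases of miR-21a-5p and miR-21c are identical, but miR-21c had 40 counts in CON replicate 3 and at most 10 elsewhere, against at least 1051 for miR-21a-5p. The seed-sharing pair miR-132-3p and miR-212-3p is identical at 17 of 22 positions, with the first 9 bases in common.

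Depth differed between groups. The miRNA counts of a library summed to between 452021 and 7565362, and their share of the library total was 2.0 to 5.0% in the untreated and 21.6 to 30.4% in the FAC libraries. Detection was set to begin at 3 counts, which was 2.48 to 6.64 CPM (counts scaled to the miRNA total of the library) in untreated libraries but 0.397 to 0.575 CPM in FAC libraries. Within the FAC group, replicates 1 and 2 had at least 1 count for 402 and 475 entries, more than any other library. FAC replicate 3 had 299, within the 266 to 332 of the CON, DFO and VE libraries. The 6 members together took 0.696 to 1.16% of the miRNA counts. Of the 2 gonad markers with values, miR-202-5p was at 0 in 11 of the 12 libraries and miR-202-3p had more than 3 counts in 3. In contrast, miR-122-5p, a miRNA of liver and serum, took 4.77 to 17.1% of the miRNA counts. The red blood cell markers took 0.822 to 16.9%. Nearly all of this was the entry that joins miR-486a-5p and miR-486b-5p, with 2153154 counts over the 12 libraries. Of the other red blood cell markers, miR-451a had 27198 counts and miR-144-3p had 1. Markers of stroma and vessel muscle took 1.307 to 11.01% of the miRNA counts. Most of these counts were of miR-143-3p, with 1607438 over the 12 libraries, against at most 7984 for any other marker of that list. The part that RNA from other sources had in the values below was not tested.

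Because the groups differed so much in their miRNA share, the members were described on 2 scales. Normalized CPM, with TMM factors, sets a miRNA against the other miRNAs of its library, and RPM, as deposited, sets it against the library total of reads. Differences in normalized counts were tested with edgeR's quasi-likelihood test in 1 fit of the 4 groups over 547 entries, and log2(RPM + 1) with limma. The threshold was the study's, a fold change of at least 1.5 and an unadjusted p under 0.05, and the Benjamini-Hochberg adjusted p over the 547 entries was computed beside it. In exosomes, fewer vesicles and fewer copies per vesicle cannot be told apart.

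The first question was whether iron changed the members. Relative to the other miRNAs, 0 of the 6 members passed the threshold between FAC and CON in edgeR, where 9.51% of all tested entries passed, and 0 of the 6 had an unadjusted p under 0.05. Their adjusted p values were between 0.607 and 1. The groups were free of overlap in normalized CPM for 0 of the 6 members, against 13.3% of all entries. DESeq2, for which the share over all entries is not given here, put 1 of the 6 past the threshold, miR-378a-3p, with an adjusted p of 0.143. Relative to the library total, in contrast, limma put 4 of the 6 past the threshold, all higher in FAC, where 35.6% of all tested entries were called higher. In 3 of the 6 the limma adjusted p was under 0.05 (20.8% of all entries), and the FAC libraries lay above all CON libraries in 4 of the 6 (31.4% of all entries). The miRNA share was also higher in the FAC libraries, and whether it accounts for the higher RPM of the members was not tested.

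Among the gonadotropin-responsive members, miR-21a-5p, which LH induces in granulosa cells and which protects them from apoptosis, was plentiful in every library. It ranked between 26 and 45 among the entries of a library. It was counted 2037, 1051 and 1110 times in CON replicates 1 to 3, 24843, 15215 and 6083 times in FAC, 2725, 5805 and 1788 times in DFO, and 2051, 2612 and 4917 times in VE. The lowest FAC count was above every other count. In normalized CPM, the levels were 1668, 2767 and 1745 in CON and 2909.6, 2032 and 1235 in FAC. They were 939, 1041 and 1342 in DFO and 926, 952 and 1545 in VE. On this scale the FAC libraries enclosed the range of the CON libraries, and all DFO and VE libraries lay below all CON libraries.

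The mean level of miR-21a-5p was 2060.3 ± 613 CPM (SD, n = 3) in CON, 2059 ± 837 (SD, n = 3) in FAC, 1141 ± 350.2 (SD, n = 3) in VE and 1107 ± 209.6 (SD, n = 3) in DFO. Neighbours in this order, CON and FAC, FAC and VE, and VE and DFO, overlapped. Its log2 fold change between FAC and CON was -0.00 (SE 0.67) in edgeR (adjusted p = 1). In RPM, the level was 84.1, 46.4 and 44.9 in CON and 999.9, 631 and 248 in FAC. The FAC libraries lay above the CON libraries, with a log2 fold change of 3.24 (SE 0.75) on the log2(RPM + 1) scale in limma (adjusted p = 0.00246).

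The second gonadotropin-responsive member, miR-132-3p, is induced by LH through cAMP together with miR-212-3p. It was scarce. It had 60, 1 and 1 counts in CON, 239, 285 and 0 in FAC, 2, 0 and 14 in DFO, and 2, 1 and 1 in VE. Within CON and within FAC, libraries with 60 counts or more stood beside libraries with 1 count or none. The normalized level was 17.8 ± 27.2 CPM (SD, n = 3) in CON and 22.0 ± 19.7 (SD, n = 3) in FAC, and in both groups the SD was close to or above the mean. The log2 fold change between them was 0.30 (SE 2.82) in edgeR (adjusted p = 1), and without FAC replicate 2 it was -0.12. Its partner miR-212-3p had 42 and 39 counts in FAC replicates 1 and 2, the FAC libraries in which miR-132-3p was found, and 0 in the other 10. Over the pooled counts of a group, the level of miR-212-3p in FAC was 2.88 times a floor of 3 counts over CON. This floor is in amplified reads and gives no lower limit of the difference.

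Of the members linked to TGF-β, miR-224-5p, which is induced by TGF-β1 and targets Smad4 in mouse granulosa cells, was found in every library. It had 158, 25 and 220 counts in CON, 3776, 3832 and 1168 in FAC, 33, 634 and 456 in DFO, and 570, 976 and 501 in VE. The FAC counts were above all others. The normalized levels were 129, 65.8 and 346 CPM in CON, 442, 512 and 237 in FAC, 11.4, 114 and 342 in DFO, and 257, 356 and 157 in VE. Here the lowest FAC library lay within the range of CON, of DFO and of VE.

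By mean level the order of miR-224-5p was FAC with 397 ± 143 CPM (SD, n = 3), VE with 257 ± 99.1 (SD, n = 3), CON with 180.4 ± 147 (SD, n = 3) and DFO with 156 ± 169 (SD, n = 3), and all neighbours overlapped. The log2 fold change between FAC and CON was 1.14 (SE 1.05) in edgeR (adjusted p = 0.607). This was below the median of 1.38 over all tested entries, although only 13 of the 52 entries past the threshold were higher in FAC. Without CON replicate 3 the log2 fold change of miR-224-5p was 2.20, past the threshold. In RPM, the level was 6.52, 1.10 and 8.90 in CON and 152, 159 and 47.6 in FAC, with a log2 fold change of 4.30 (SE 0.96) on the log2(RPM + 1) scale in limma (adjusted p = 0.00196). The neighbour miR-452-5p had 55 and 31 counts in FAC replicates 1 and 2, 149 in DFO replicate 1 and 0 in the other 9 libraries, and the other TGF-β member, miR-383-5p, was not analysed here.

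Of the members linked to steroid synthesis, miR-320-3p, which lowers estradiol output and targets E2F1 and SF-1 in granulosa cells, was the most counted, and it ranked between 14 and 25 in all libraries. It had 6776, 3306 and 6785 counts in CON, 25069, 21741 and 41460 in FAC, 28249, 27284 and 8803 in DFO, and 19268, 23957 and 26170 in VE. The normalized levels were 5550.0, 8704 and 10669 CPM in CON, 2936, 2903 and 8420.4 in FAC, 9732, 4892 and 6607 in DFO, and 8703, 8732 and 8225 in VE. FAC replicates 1 and 2 were below the other 10 libraries, and FAC replicate 3 lay among the VE libraries.

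The mean of miR-320-3p was 8553 ± 285 CPM (SD, n = 3) in VE, 8308 ± 2582 (SD, n = 3) in CON, 7077 ± 2454 (SD, n = 3) in DFO and 4753 ± 3176 (SD, n = 3) in FAC, and neighbours overlapped. Relative to the other miRNAs, its log2 fold change between FAC and CON was -0.81 (SE 0.52) in edgeR (adjusted p = 0.607). Without FAC replicate 3 it was -1.48, past the threshold with an adjusted p of 0.0946 in edgeR. Relative to the library total the direction was the opposite. The RPM level was 279.6, 146 and 275 in CON and 1009, 902 and 1691 in FAC, and the log2 fold change on the log2(RPM + 1) scale was 2.36 (SE 0.66) in limma (adjusted p = 0.0102).

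The aromatase-targeting miR-378a-3p was scarce, with 3, 4 and 5 counts in CON, 670, 1214 and 7 in FAC, 9, 238 and 2 in DFO, and 1, 0 and 2 in VE. FAC replicates 1 and 2 and DFO replicate 2 held nearly all of its counts. The normalized levels were 2.46, 10.5 and 7.86 CPM in CON and 78.5, 162 and 1.42 in FAC. FAC replicate 3 was thus below all CON libraries and the other FAC libraries above them. Between FAC and CON the log2 fold change was 3.55 (SE 2.37) in edgeR (adjusted p = 0.607), and it was 3.39 (SE 1.24) on the log2(RPM + 1) scale in limma (adjusted p = 0.0528). Its reads are close in sequence to those of miR-378c and miR-378d, so the split of counts between them is uncertain. The related miR-378d had 24, 19 and 0 counts in CON, 156, 177 and 49 in FAC, 21, 151 and 10 in DFO, and 19, 53 and 15 in VE.

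The gonad-enriched miR-202-5p had 160 counts in FAC replicate 1 and 0 in the other 11 libraries. Its pooled level in FAC was 5.69 times a floor of 3 counts over CON, 25.0 times that over DFO and 20.7 times that over VE. These values rest on 1 library, and without it the FAC group would be at 0 as well. Reads were amplified, so 3 reads are not a floor in molecules, and no lower limit of the difference follows.

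**Figure D1:**
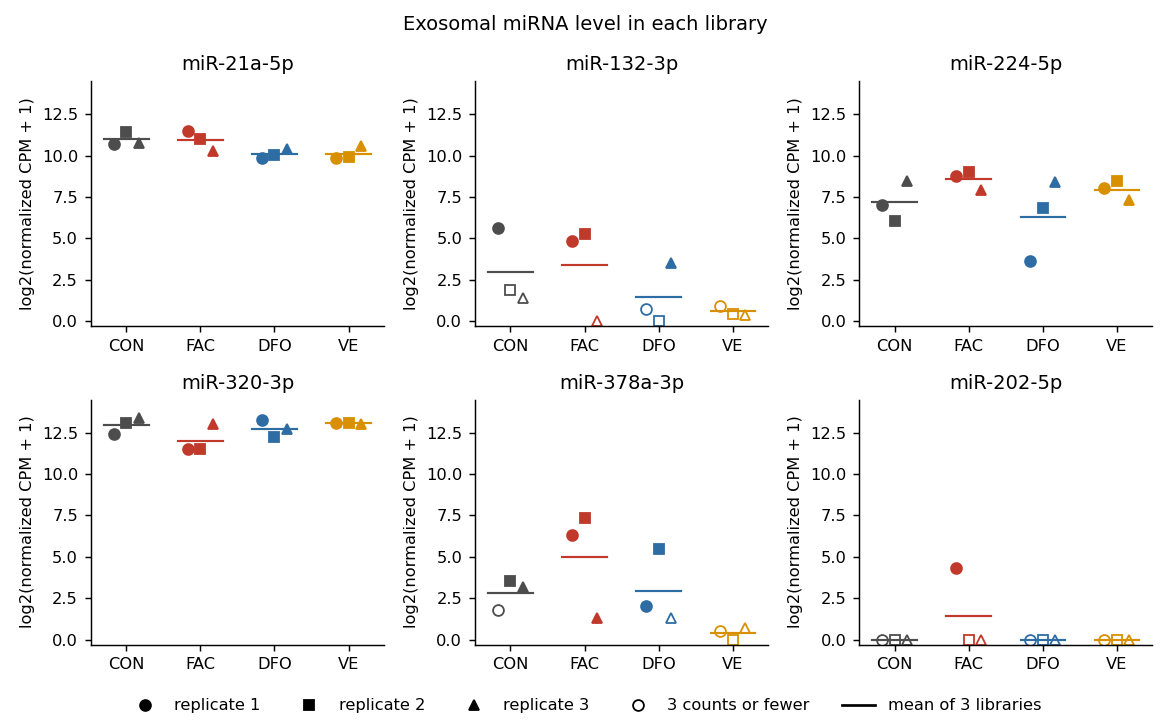
The vertical axis is log2(normalized CPM + 1) for 6 miRNAs by treatment group, with 1 point per library, lines for group means and open points for libraries with 3 counts or fewer. The abundant miR-21a-5p, miR-224-5p and miR-320-3p were found in all 12 libraries, while miR-132-3p, miR-378a-3p and miR-202-5p were high in a few libraries and near 0 in others.

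The counts of the 3 scarce members were split at their own widest gap on a log2 scale, so some gap was sure to be found. Of the 36 values of miR-132-3p, miR-202-5p and miR-378a-3p in the 12 libraries, 29 were at 14 counts or fewer and 7 were at 60 or more, with none between. Other scarce entries had counts within this gap, as miR-212-3p with 42 and 39 and miR-452-5p with 55 and 31 in FAC replicates 1 and 2. Of the 7 high values, 5 were in FAC, 1 in CON, 1 in DFO and 0 in VE. How such values of all entries divide between the groups is not given here. The 5 of the FAC group were in replicates 1 and 2, and FAC replicate 3 had no high value. The counts of all entries in a library also had a peak far above 1 count, here called the lowest mode, at 20.3 to 198 counts. The 160 counts of miR-202-5p were 2.73 times the mode of their library, and the 60 counts of miR-132-3p in CON replicate 1 were 0.874 times the mode of theirs. The members found in all libraries were at 0.214 to 189 times the mode for miR-224-5p, 5.61 to 751 times for miR-21a-5p and 28.3 to 1073 times for miR-320-3p.

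The next question was whether the chelator or the antioxidant changed the members in iron-loaded cells. Both comparisons use the same FAC libraries, so 1 does not add to the other. Between DFO and FAC, 0 of the 6 members passed the threshold in edgeR, against 12.2% of all tested entries, 0 of the 6 had an unadjusted p under 0.05, and the lowest adjusted p was 0.458. DESeq2 also put 0 of the 6 past it, and its share over all entries is not given here. In normalized CPM, 0 of the 6 members were free of overlap, against 16.6% of all entries. The log2 fold change in edgeR was -0.89 (SE 0.68) for miR-21a-5p, -1.35 (SE 1.05) for miR-224-5p and 0.57 (SE 0.52) for miR-320-3p. It was -2.57 (SE 2.99) for miR-132-3p and -2.35 (SE 2.23) for miR-378a-3p, each with wide errors. Without DFO replicate 3 the value of miR-224-5p was -2.66, past the threshold. In 5 of the 6 members the value was below 0, but 1 of these, miR-202-5p, had reads in 1 FAC library alone and could only be lower. The median of -1.85, against -0.66 over all entries, depends on such scarce members and does not describe a shift of the members as a group.

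Between VE and FAC, 1 of the 6 members passed the threshold in edgeR, where 9.32% of all tested entries passed, and this was miR-378a-3p. The groups did not overlap in normalized CPM for this member alone, 1 of the 6, against 14.6% of all entries. Its 3 counts in all VE libraries against 1891 in FAC gave a ratio of 245 with a 95% counting interval of 83.7 to 1189, FAC being higher. The fitted log2 fold change was -7.66 (SE 2.86), with an unadjusted p of 0.00743 in edgeR and an adjusted p of 0.339, above 0.05. Without FAC replicate 2 the unadjusted p in edgeR was 0.0628. The number of members past the threshold in this comparison was 0 without FAC replicate 2, 2 without FAC replicate 3 and 3 in DESeq2. For these settings the share of all entries is not given here. Over the 15 alternatives the log2 fold change of miR-378a-3p stayed between -9.12 and -3.56 and its adjusted p between 0.000404 and 0.652. The FAC group was not uniform for this miRNA, since the 7 counts of FAC replicate 3 were 1.42 CPM, close to the 0.629 CPM of VE replicate 3.

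The other members did not pass the threshold between VE and FAC. The log2 fold change in edgeR was -0.85 (SE 0.68) for miR-21a-5p, -0.63 (SE 1.04) for miR-224-5p and 0.85 (SE 0.52) for miR-320-3p. For miR-132-3p, the 4 counts over VE against 524 in FAC gave a ratio of 50.9 with a counting interval of 19.8 to 187, a range that covers counting error only and not the spread between libraries. Over the 6 members the median log2 fold change was -3.08, or -2.61 with miR-202-5p set at the floor of 3 counts over VE, against -0.63 over all entries. The fitted median fell between -5.30 for miR-132-3p and -0.85 for miR-21a-5p, so it describes no member. The value of miR-202-5p, with reads in 1 FAC library alone, could only be below 0. Without FAC replicate 3, miR-320-3p was past the threshold in both comparisons, with log2 fold changes of 1.36 for DFO and 1.37 for VE against FAC.

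In RPM, where the miRNA share is kept, 3 of the 6 members were past the threshold and lower in DFO than in FAC (20.5% of all entries), and 3 of the 6 were lower in VE than in FAC (18.3% of all entries). The 3 were miR-21a-5p, miR-132-3p and miR-224-5p for DFO, and miR-21a-5p, miR-132-3p and miR-378a-3p for VE. The lowest adjusted p of a member in limma was 0.0539 for DFO and 0.197 for VE. The miRNA share of the library total was 5.53 to 19.9% in DFO and 9.2 to 14.6% in VE, below the FAC libraries.

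**Figure D2:**
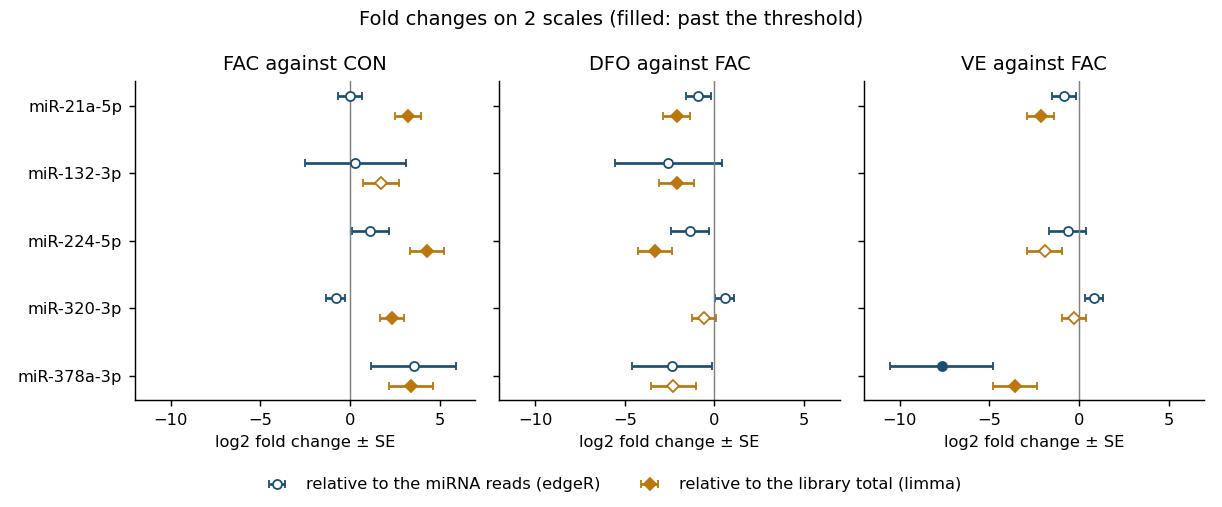
The horizontal axis is the log2 fold change with its SE for 5 miRNAs in 3 comparisons, with circles for normalized counts in edgeR and diamonds for log2(RPM + 1) in limma, filled where past the threshold, and miR-132-3p, with 4 counts in VE, is left out of the last panel. Between FAC and CON, miR-320-3p was at -0.81 on the first scale and at 2.36 on the second, and miR-21a-5p at -0.00 and 3.24.

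Against untreated cells, 0 of the 6 members passed the threshold in edgeR in DFO (7.68% of all tested entries) and 0 of the 6 in VE (10.4% of all tested entries). In either comparison, 0 had an unadjusted p under 0.05. With 0 counts in CON, DFO and VE, miR-202-5p could neither pass nor be free of overlap here. It had passed the filter through FAC replicate 1 alone. The lowest adjusted p was 0.693 for DFO and 0.530 for VE. DESeq2 put 1 past the threshold in DFO and 3 in VE, and its share over all entries is not given here. In normalized CPM, 1 of the 6 was free of overlap in DFO, miR-21a-5p, which was lower than in CON (6.03% of all entries). In VE, 3 of the 6 were free of overlap, miR-21a-5p, miR-132-3p and miR-378a-3p, all lower than in CON (13.0% of all entries). For miR-132-3p, CON replicates 2 and 3 had 1 count each, under their floors of 3 counts, the VE libraries had 1 or 2, and in RPM the groups overlapped. For miR-378a-3p, there were 3 to 5 counts in the CON and 0 to 2 in the VE libraries.

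A ratio of 2 miRNAs within a library does not depend on the scaling between libraries, and it was computed, after the counts had been seen, for the 3 members found everywhere. In every library miR-320-3p had more counts than miR-21a-5p, and miR-21a-5p more than miR-224-5p. For each 100 reads of miR-320-3p, there were 30.1, 31.8 and 16.4 reads of miR-21a-5p in CON, 99.1, 70.0 and 14.7 in FAC, 9.65, 21.3 and 20.3 in DFO, and 10.6, 10.9 and 18.8 in VE. FAC replicates 1 and 2 had at least 2 times the ratio of any other library, and FAC replicate 3 was below all CON libraries. The mean was 26.1 ± 8.45 (SD, n = 3) in CON and 61.3 ± 42.9 (SD, n = 3) in FAC.

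The ratio of miR-224-5p to miR-320-3p divided the FAC libraries in the same way, with 15.1, 17.6 and 2.82 reads per 100 in FAC against 0.756 to 3.24 in CON, 0.117 to 5.18 in DFO and 1.91 to 4.07 in VE. In contrast, miR-224-5p per 100 reads of miR-21a-5p was 15.2, 25.2 and 19.2 in the 3 FAC libraries, so FAC replicate 3 lay between the others. This ratio was 7.76, 2.38 and 19.8 in CON, and the groups overlapped.

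**Figure D3:**
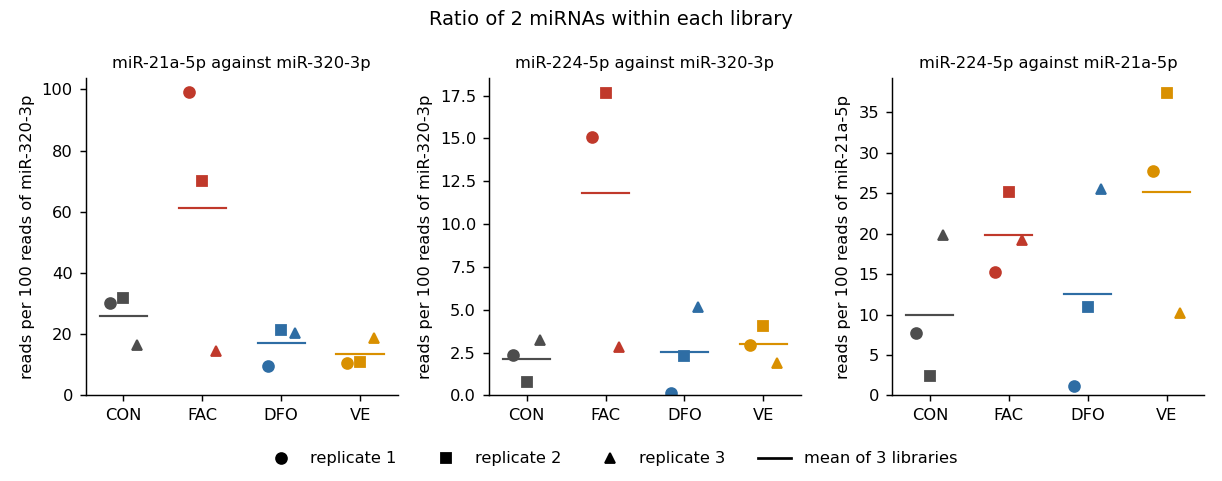
The vertical axes give the reads of 1 miRNA per 100 reads of another in each library by treatment group, with lines for group means. FAC replicates 1 and 2 stand above the other libraries for miR-21a-5p and miR-224-5p against miR-320-3p, at 99.1 and 70.0 and at 15.1 and 17.6, and FAC replicate 3 does not.

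The 2 arms of a hairpin come from 1 precursor, so the share of its reads on the member's arm is also a value within a library. The arm of miR-21a-5p took 100% of the reads of its hairpin in 10 libraries and 99.8% and 99.5% in FAC replicates 1 and 2, where miR-21a-3p had 49 and 82 counts. For mir-132, the other arm, miR-132-5p, was found in more libraries than miR-132-3p, with more than 3 counts in 8 against 4. The share of miR-132-3p was 43.5% in CON replicate 1 (95% Wilson interval 35.5 to 51.8), 47.1% (42.8 to 51.5) and 66.3% (61.7 to 70.6) in FAC replicates 1 and 2, and 0% (0 to 2.62) of 143 reads in FAC replicate 3. It was 1.79% (0.491 to 6.28) of 112 reads in DFO replicate 1 and 1.28% (0.227 to 6.91) of 78 reads in VE replicate 2. Libraries with a similar number of reads on this hairpin thus differed from a near-even split to nearly all reads on the 5p arm. The intervals treat reads as separate molecules, although reads were amplified. In FAC replicate 3, DFO replicate 1 and VE replicate 2, miR-132-5p was at 0.726, 0.786 and 0.880 times the lowest mode. The number of molecules behind the shares here and below is therefore not known. The cluster partner's arm miR-212-5p was found in FAC replicate 3 too, and it had 163, 68 and 199 counts in FAC, 0, 0 and 1 in CON, 0, 0 and 1 in DFO, and 14, 108 and 0 in VE.

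For mir-378a, 670 and 1214 reads in FAC replicates 1 and 2 were all on the 3p arm, while 230 of 237 reads in FAC replicate 3 and 102 of 104 reads in VE replicate 3 were on the 5p arm. The share of miR-378a-3p was 2.95% (95% Wilson interval 1.44 to 5.97) and 1.92% (0.529 to 6.74) there. Counted over both arms, the hairpin had 670, 1214 and 237 reads in FAC replicates 1 to 3, 238 in DFO replicate 2 and 104 in VE replicate 3. It had at most 9 in any other library. For mir-202, the 160 reads of FAC replicate 1 were all on the 5p arm, and the 20 reads in FAC replicate 2, 163 in DFO replicate 1 and 108 in VE replicate 3 were all on the 3p arm, so that 0 libraries had more than 3 counts on both arms. Between FAC and CON, the mean share of the member's arm differed by -0.244 percentage points for mir-21a (exact permutation test, two-sided, p = 0.4), -18.4 for mir-132 (exact permutation p = 0.6) and -32.3 for mir-378a (exact permutation p = 1), where 3 libraries against 3 allow no p below 0.1. Shares tied at 100% left mir-378a no other p and mir-21a no lower one, so the tests of these hairpins could not show a difference. The CON shares of mir-378a rest on 3, 4 and 5 reads. The value of mir-132 rests on few reads in CON, 1 of 1 in replicate 2 and 1 of 4 in replicate 3. It was -5.67 with only libraries of at least 10 reads over both arms, 3.57 without CON replicate 2 and 0.55 without FAC replicate 3, so that its sign differed between settings. These 3 tests were not adjusted, since none was under 0.05.

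**Figure D4:**
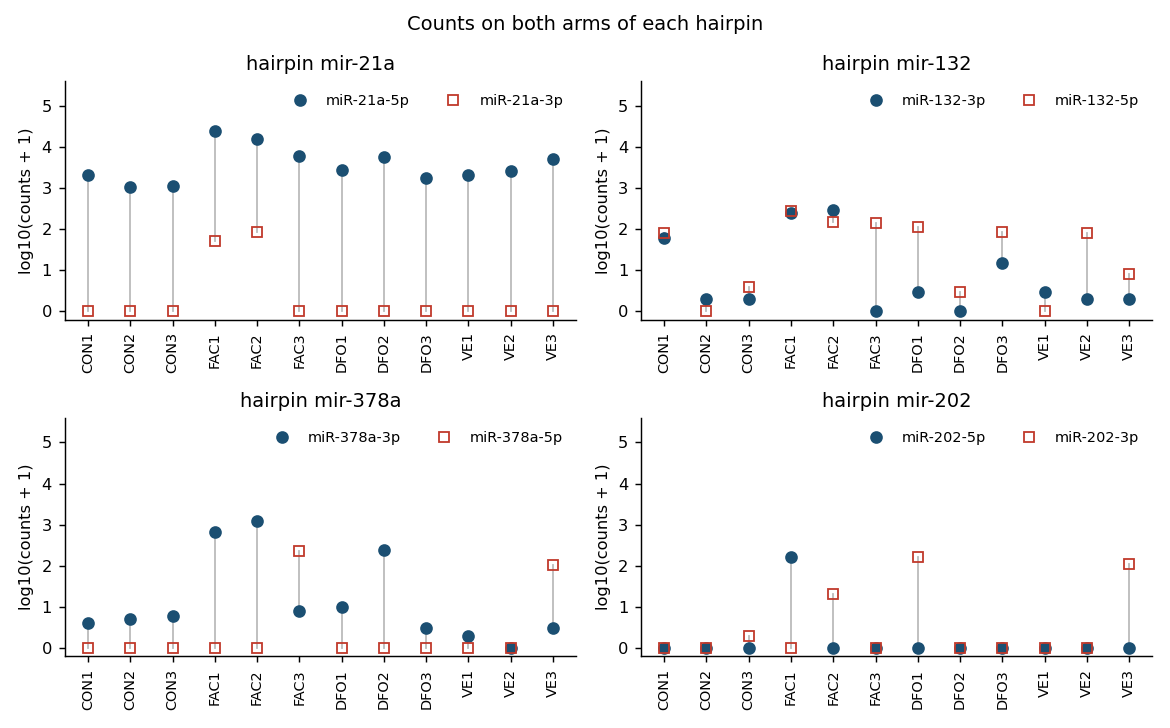
The vertical axis is log10(counts + 1) of both arms of 4 hairpins in each of the 12 libraries, with filled circles for the followed arm and open squares for the other arm. The reads of mir-21a were on 1 arm in nearly all libraries, while those of mir-378a and mir-202 were on 1 arm in some libraries and on the other arm in others, as in FAC replicate 3 with 7 and 230 counts.

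The members did not vary together as 1 group over the 12 libraries. In log2 normalized CPM, Pearson's r was 0.62 between miR-21a-5p and miR-132-3p and 0.59 between miR-21a-5p and miR-378a-3p, and it was -0.78 between miR-320-3p and miR-378a-3p and -0.69 between miR-320-3p and miR-132-3p. These values are descriptions over 12 libraries that share depth and groups. Of the 241 entries with at least 1 count in 8 or more libraries, the one most like miR-320-3p was miR-423-5p (r = 0.95), followed by miR-486a-3p (r = 0.90) and miR-193b-5p (r = 0.89). The entries most like miR-21a-5p were miR-27b-3p (r = 0.80), miR-374b-5p (r = 0.75) and miR-30a-3p (r = 0.72). For miR-224-5p they were miR-99b-3p (r = 0.81), miR-322-3p (r = 0.74) and miR-221-3p (r = 0.73). For miR-378a-3p they were miR-193b-3p (r = 0.97), miR-28a-5p (r = 0.76) and miR-107-3p (r = 0.70), and for miR-132-3p they were miR-143-3p (r = 0.74), miR-374b-5p (r = 0.71) and miR-381-3p (r = 0.66).

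Of 26 other miRNAs studied in granulosa cells, listed by name, 24 had values and 22 were tested. In edgeR, 4 of the 22 passed the threshold between FAC and CON, 3 higher and 1 lower, against 9.51% of all tested entries. Between DFO and FAC 6 passed, 2 higher and 4 lower (12.2% of all entries), and between VE and FAC 3 passed, 1 higher and 2 lower (9.32% of all entries). Against CON, 4 passed in DFO, 2 in each direction (7.68% of all entries), and 4 in VE, 1 higher and 3 lower (10.4% of all entries). The medians of their log2 fold changes were 0.49, -0.70 and -0.80 in the 3 comparisons with FAC, against 1.38, -0.66 and -0.63 over all entries.

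Within this list, miR-23a-3p, a miRNA linked to granulosa cell apoptosis, had 239 ± 209 CPM (SD, n = 3) in CON, 1360.5 ± 469.8 (SD, n = 3) in FAC, 216 ± 129.6 (SD, n = 3) in DFO and 521 ± 48.8 (SD, n = 3) in VE. Its counts in CON were 586, 48 and 70. Its log2 fold change was 2.51 (SE 0.89) between FAC and CON (edgeR adjusted p = 0.135) and -2.65 (SE 0.89) between DFO and FAC (edgeR adjusted p = 0.114). The inflammation-linked miR-146a-5p rose in all 3 iron-treated groups relative to CON by the unadjusted threshold, from 19.2 ± 10.2 CPM (SD, n = 3) in CON to 255 ± 152 (SD, n = 3) in FAC, 136 ± 20.5 (SD, n = 3) in DFO and 141 ± 61.4 (SD, n = 3) in VE, with edgeR adjusted p values of 0.161, 0.625 and 0.460. In the same cluster as miR-23a, miR-24-3p was 3510.1 ± 1352 CPM (SD, n = 3) in FAC and 911 ± 159.7 (SD, n = 3) in DFO (edgeR adjusted p = 0.125). It was 1444 ± 363 (SD, n = 3) in CON and 1829 ± 552 (SD, n = 3) in VE. No count of miR-155-5p was found in VE, against 311, 90 and 114 in FAC, where the pooled level was 66.7 times a floor of 3 counts over VE (edgeR adjusted p = 0.444).

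Adjusted p values under 0.05 in this list were those of let-7b-5p, which was -1.78 (SE 0.41) between FAC and CON and 1.93 (SE 0.41) between DFO and FAC on the log2 scale (edgeR adjusted p = 0.00783 and 0.000724), of miR-125a-5p, which was 2.51 (SE 0.54) between DFO and FAC (edgeR adjusted p = 0.000724), and of miR-143-3p, which was -1.95 (SE 0.42) between VE and CON (edgeR adjusted p = 0.00103). Reads of miR-23a, miR-125a, miR-146a and let-7b are close to those of miR-23b, miR-125b, miR-146b and let-7c, and the split between them is uncertain. Also past the unadjusted threshold were miR-143-3p in VE against FAC (log2 fold change -1.50, edgeR adjusted p = 0.0566) and in DFO against CON (-1.09, edgeR adjusted p = 0.373), miR-125a-5p in DFO against CON (1.64, edgeR adjusted p = 0.220) and let-7b-5p in VE against CON (-1.24, edgeR adjusted p = 0.0860). The 1 past the threshold and higher in VE than in FAC was miR-122-5p, with a log2 fold change of 0.98 (SE 0.35; edgeR adjusted p = 0.284), and miR-503-5p was at -4.04 (SE 1.51) in DFO against CON, with 10, 199 and 0 counts in DFO and 346, 137 and 6 in CON (edgeR adjusted p = 0.373).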

How the data were processed

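Small RNA of exosomes was isolated with the exoEasy Maxi kit and sequenced on an Illumina HiSeq instrument with reads of 15 to 41 bp. The authors deposited, for each of 12 libraries, the counts of reads per miRNA entry and the same values as RPM, named TPM by them and equal to count over 1 total per library of 22631206 to 24845945 reads. The submitters' processing notes name the build mm9. The aligner, trimming and miRNA database are not given in the sources used here. Of the 637 entries, 5 join 2 miRNAs.

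Counts were tested with edgeR 4.0.16 (R 4.3.3; TMM, glmQLFit, 1 fit of 4 groups, entries with at least 10 counts in all, common coefficient of variation between libraries 1.57), and log2(RPM + 1) with limma 3.58.1, which understates changes of low entries. DESeq2 1.42.0 was an alternative. Exact permutation tests and Wilson intervals were computed with SciPy 1.17.1 and NumPy 2.4.6. In simulated data for FAC against CON with 547 entries, 200 of them changed by 3 (log2), edgeR found 175 at a low spread and 0 at the common spread of the real data. An entry counted as found at an adjusted p under 0.05, which is stricter than the study's threshold. All simulated entries had the same spread, whereas real entries differ in theirs. The simulation therefore does not show what the test can find for entries with a smaller spread. Over the 66 pairs of libraries, the lowest value of chi-square over its degrees of freedom was 155.7, so no library was a copy of another. Intervals, ratios and floors describe counting error alone, as reads were amplified and are not separate molecules.

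The lowest mode was the highest peak of the log2 counts between 10 and 500 (bandwidth 0.18), set after the counts had been seen. Members, lists and tests were chosen with earlier results of these data known. The text names the 7 members, their other arms, cluster neighbours and seed relatives, and from the list of 26 up to 2 miRNAs with the smallest p in each direction and comparison. The 3 entries most like a member were taken by Pearson's r in log2 CPM (prior count 2). Oocyte, white blood cell and epithelium markers took at most 0.00429%, 0.0356% and 0.0227% of the miRNA counts.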

Additional observations from a re-analysis of the deposited data

How the results depend on the processing

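With counts scaled to the library totals in edgeR, 4, 2, 3, 2 and 2 of the 6 members passed the threshold in FAC against CON, DFO against FAC, VE against FAC, DFO against CON and VE against CON. With limma these were 4, 3, 3, 1 and 2 for a pseudocount of 1 and 4, 2, 2, 1 and 2 for 0.1. DESeq2 gave 1 in FAC against CON, 3 in VE against FAC, 1 in DFO against CON and 3 in VE against CON, and DESeq2's size factors in edgeR gave 1 in FAC against CON. In VE against FAC the number was 0 with an adjusted p under 0.05 as the rule, and 0 with at least 10 counts in every library, a filter that leaves 3 members. With each library left out in turn it was 0 to 1 in FAC against CON, 0 to 1 in DFO against FAC and 0 to 2 in VE against FAC. The 2 scales differ by the miRNA share of a library and by the TMM factors, from 0.840 in CON replicate 2 to 1.43 in FAC replicate 2. With limma the model and the transform differ too. The cause of the changes between settings was not tested.

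The direction of miR-320-3p changed with values relative to the library total. Its log2 fold change was 2.36 in FAC against CON with library totals in edgeR, and in limma 2.36 and 2.37 with the pseudocounts 1 and 0.1. In the same order it was -0.46, -0.58 and -0.58 in DFO against FAC, and -0.33, -0.29 and -0.29 in VE against FAC. For miR-21a-5p in FAC against CON, whose value was near 0, the sign changed with total miRNA counts (0.39), library totals (3.42), limma (3.24 and 3.27), no filter (0.15) and at least 10 counts in every library (0.19), and it ranged from -0.35 to 0.43 with 1 library left out. For miR-132-3p in FAC against CON this range was -0.12 to 3.38. The arm share of mir-202 in FAC minus CON was 0 to 100 percentage points, since it rests on 1 library of each kind. For mir-378a and mir-202 no CON library had 10 counts over both arms, so that filter gave no value. Of the 219 log2 fold changes of members under an alternative, 173 kept their direction and their side of the threshold.

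No pairing of the libraries by replicate number was seen. The mean r between deviations was 0.0042 for same-numbered libraries (18 pairs, 0 of them over 0.1) and -0.0020 for different-numbered ones. With the wide spread between libraries this does not exclude a pairing, and the labels do not say. With the replicate block in edgeR, 0, 0, 1, 0 and 0 members passed in the 5 comparisons, as without it, the log2 fold change of miR-21a-5p in FAC against CON was 0.013, and 39, 54, 32, 23 and 36 of all entries passed, against 52, 67, 51, 42 and 57. Depth limits the scarce members most, since 3 counts were up to 6.64 CPM in CON.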
